A study of Homo sapiens with 2 samples.

Results

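miR-221 and miR-222 are a pair of paralogous miRNAs processed from 1 host transcript, and their 4 mature strands were followed here in small RNA recovered on an affinity resin. The members were chosen by name, namely hsa-miR-221-3p, hsa-miR-221-5p, hsa-miR-222-3p and hsa-miR-222-5p, written below without the species prefix, and all 4 were found among the 2588 mature miRNA names counted in each library. The source was lysate of MDA231 cells (parental), a basal-like, mesenchymal breast cancer line. In the bait library the amylose resin carried the long non-coding RNA MACC1-AS1 fused to MS2 hairpins, transcribed in vitro and held by a fusion of maltose-binding protein and MS2 coat protein. In the no-bait library the labels give no RNA substrate, so neither the MS2 hairpins alone nor an unrelated RNA served as a control. The question is which cellular miRNAs associate with the tagged RNA. Each group held 1 library, with 1047269 miRNA counts with bait and 269716 without, so differences lack a replicate check, and every interval below is a 95% interval for counting error only.

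A miRNA is cut from a hairpin precursor as a duplex of a 5p and a 3p strand. One strand, the guide, is usually kept by an Argonaute protein and pairs with target RNAs through its seed, the bases 2 to 8, while the other strand is mostly degraded. The 3p strands are the guides of miR-221 and miR-222. They are known to repress the cell cycle inhibitor CDKN1B (p27), the receptor KIT and, in breast cancer, the oestrogen receptor ESR1, and they are typical of basal-like rather than luminal breast cancer cells.

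RefSeq held the mature sequence of 3 of the 4 strands on build GRCh38.p14. They are shown because the guides share their seed and differ in part behind it, which bears on whether reads of one could be counted as the other. Capitals mark the seed, and each sequence runs 5′ to 3′. The fourth strand, miR-221-5p, is named only.
miR-221-3p (chrX:45746180-45746202, minus strand): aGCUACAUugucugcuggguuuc
miR-222-3p (chrX:45747036-45747056, minus strand): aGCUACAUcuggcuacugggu
miR-222-5p (chrX:45747073-45747094, minus strand): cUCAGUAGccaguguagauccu

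The guides of 23 and 21 bases are identical over the first 8 bases. Over the 13 further positions of the shorter guide, set side by side without gaps, 3 were the same. In a global alignment with gaps allowed, 10 of these 13 bases matched, for 18 matched bases in all. No other human mature sequence in the RefSeq table had the seed of the guides or the seed of miR-222-5p. The handling of reads that match more than 1 miRNA is not stated in the labels or files used here. miR-199a-3p and miR-199b-3p, named after their values were seen, have the same mature sequence and were listed with the same counts. Each had 92 counts without bait and 176 with it. How reads matching both guides were counted was not tested.

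The hairpins follow, with the mature strands listed above in capitals, to show where each strand lies in its precursor.
MIR221 (chrX:45746157-45746266, minus strand): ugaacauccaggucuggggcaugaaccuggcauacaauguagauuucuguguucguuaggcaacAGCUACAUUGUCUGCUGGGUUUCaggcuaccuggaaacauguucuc
MIR222 (chrX:45747015-45747124, minus strand): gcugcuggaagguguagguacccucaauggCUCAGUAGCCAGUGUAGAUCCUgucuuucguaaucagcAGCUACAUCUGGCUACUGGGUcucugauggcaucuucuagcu

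The hairpins lie 748 bp apart. In GENCODE version 29 on GRCh38 both fall between the 2 exons of a MIR222HG transcript, and so in its intron. MIR222HG, the host gene, spans chrX:45745211-45770274 on the minus strand. The labels and files name no genome build.

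The guide of miR-222 was the member whose share of the library differed most between the libraries, though miR-222-5p changed by a larger fold. The guide of miR-221 did not follow the guide of miR-222. Levels are given as RPM, the reads of a miRNA per 1000000 miRNA counts of its library. Since a miRNA read covers the whole molecule, RPM is not divided by length, but ligation and amplification preferences differ between sequences.

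miR-222-3p was listed at 10842 counts without bait, or 40198 RPM (interval 39445 to 40962). With bait it had 8407 counts, or 8028 RPM (7857 to 8201), although that library was 3.88-fold deeper. It fell 5.01-fold (4.87 to 5.15) as a share of the library, from 4.02% to 0.803% of counts. It went from the 4th to the 16th place in abundance.

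miR-221-3p had 1188 counts without bait, or 4405 RPM (4158 to 4662), and 5860 counts with bait, or 5596 RPM (5453 to 5741). The bait over no-bait ratio was 1.27 (1.19 to 1.35), above 1 beyond counting error and below the ratio of 2 that was required for a call. It held the 20th place in both libraries.

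miR-221-5p, the partner strand in the miR-221 duplex, had 468 counts without bait, or 1735 RPM (1581 to 1900), and 967 with bait, or 923 RPM (866 to 983). Its ratio was 0.532 (0.476 to 0.596), just above the 0.5 required for a lower call. Its place went from 35 to 48.

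miR-222-5p, the partner strand in the miR-222 duplex, was the rarest member. It had 68 counts without bait, or 252 RPM (196 to 320), and 31 counts with bait, or 29.6 RPM (20.1 to 42.0). It fell 8.52-fold (5.49 to 13.5), and its place went from 88 to 199.

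**Figure D1:**
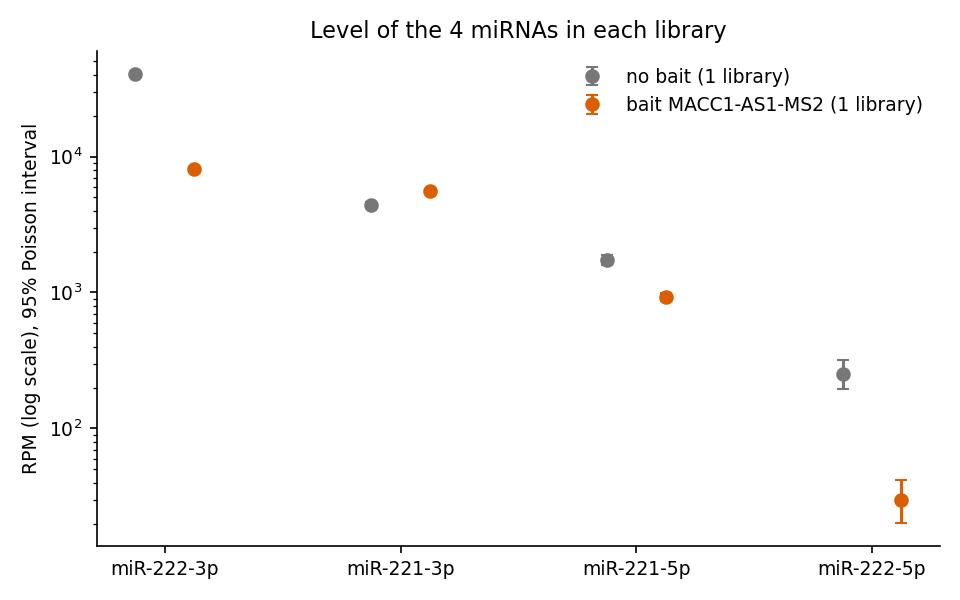
Level of the 4 strands in RPM on a log axis, in the no-bait library (grey) and the bait library (orange), with 95% Poisson intervals; each point is 1 library. miR-222-3p is at 40198 RPM without bait and 8028 RPM with it, while miR-221-3p is at 4405 and 5596 RPM.

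The order of the 4 strands by RPM was the same in both libraries, with miR-222-3p first, then miR-221-3p, miR-221-5p and miR-222-5p, and no intervals of neighbours in this order overlapped. The distances between them changed, since the guides lay close together with bait and far apart without it. Of their neighbours among all miRNAs, miR-24-3p lay just above miR-222-3p with bait, at 8135 RPM (7964 to 8310), and their intervals overlapped. Without bait the miRNAs next to miR-222-3p were far from it, with miR-21-5p at 97328 RPM above and miR-99b-5p at 29390 RPM below. miR-221-3p overlapped both of its neighbours without bait, miR-125b-5p at 4672 RPM (4417 to 4937) and miR-24-3p at 4115 RPM (3877 to 4365). With bait it overlapped neither miR-10a-5p above it (6055 to 6357) nor miR-423-3p below it (5120 to 5399).

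A miRNA was called lower at a ratio of at most 0.5, and higher at a ratio of at least 2, where the interval excluded 1 and the libraries together held at least 30 counts. All 4 members passed this count minimum. By this rule 2 of 4 members were lower, miR-222-3p and miR-222-5p, and 0 were higher. Of all 231 tested miRNAs 26.8% were called lower and 39.4% higher, so both directions were common in these libraries. These shares depend on the count minimum, which is set on raw counts. The bait library was 3.88-fold deeper, so a miRNA seen mainly with bait reaches 30 counts more easily. When no count minimum was set, 715 miRNAs were tested, and 100 were called lower and 95 higher. Among tested miRNAs, 29 had a smaller ratio than miR-222-3p and 15 a smaller one than miR-222-5p. Of the 52 miRNAs with at least 1000 summed counts, 3 had a smaller ratio than miR-222-3p, namely miR-4488, miR-423-5p and miR-151a-3p, named after their values were seen. miR-221-3p lay near the middle, with 105 tested miRNAs below it and 125 above.

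**Figure D2:**
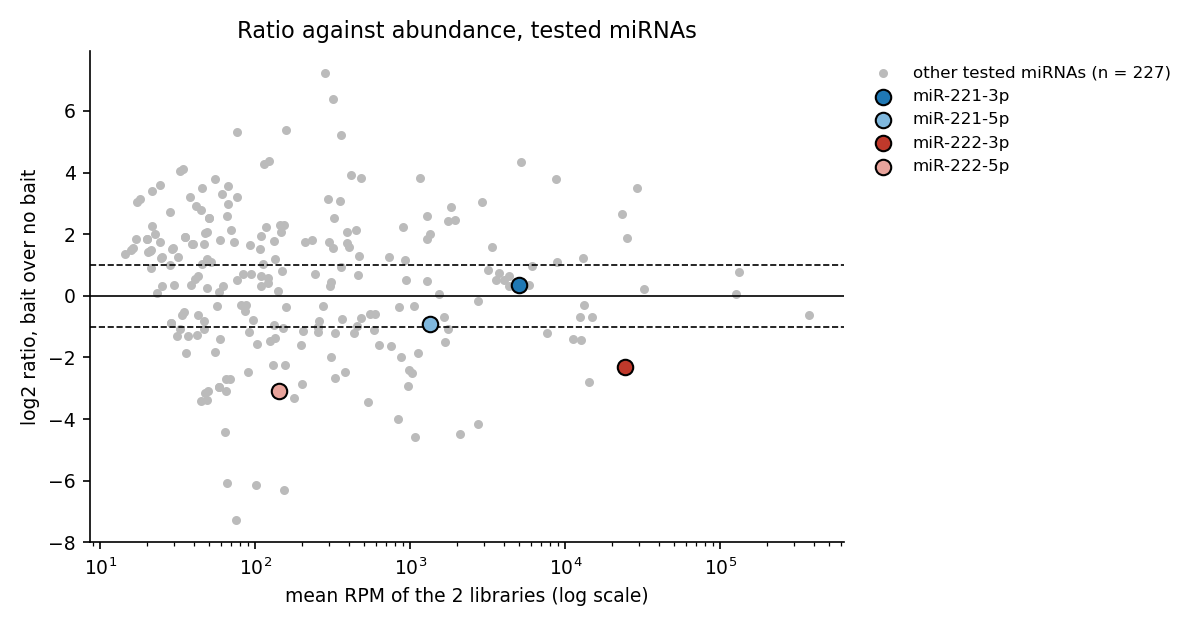
Log2 ratio of bait over no bait against the mean RPM of both libraries (log axis) for the tested miRNAs; grey points are the other miRNAs, coloured points the 4 strands, and dashed lines mark ratios of 2 and 0.5. miR-222-3p sits at -2.32 among the abundant miRNAs, miR-222-5p at -3.09, miR-221-5p at -0.91 and miR-221-3p at 0.35.

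In the authors' deposited table the log2 fold changes were -2.32 for miR-222-3p, with a p-value of 0.00146, and -3.09 for miR-222-5p, with a p-value of 0.000124. The authors' deposited table gives 0.35 and a p-value of 0.448 for miR-221-3p, and -0.91 and 0.255 for miR-221-5p. The sources used here do not name that test. It rests on the same 2 libraries, so it adds no replicate.

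The 4 strands together took 4.66% of counts without bait (4.58% to 4.74%) and 1.46% with bait (1.43% to 1.48%), a sum 3.20-fold lower (3.12 to 3.27). Without bait miR-222-3p supplied 86.3% of the counts of the 4 strands and miR-221-3p 9.45%. With bait these parts were 55.1% and 38.4%. The sum of the pair therefore followed miR-222-3p, and most of its loss was that of 1 strand.

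**Figure D3:**
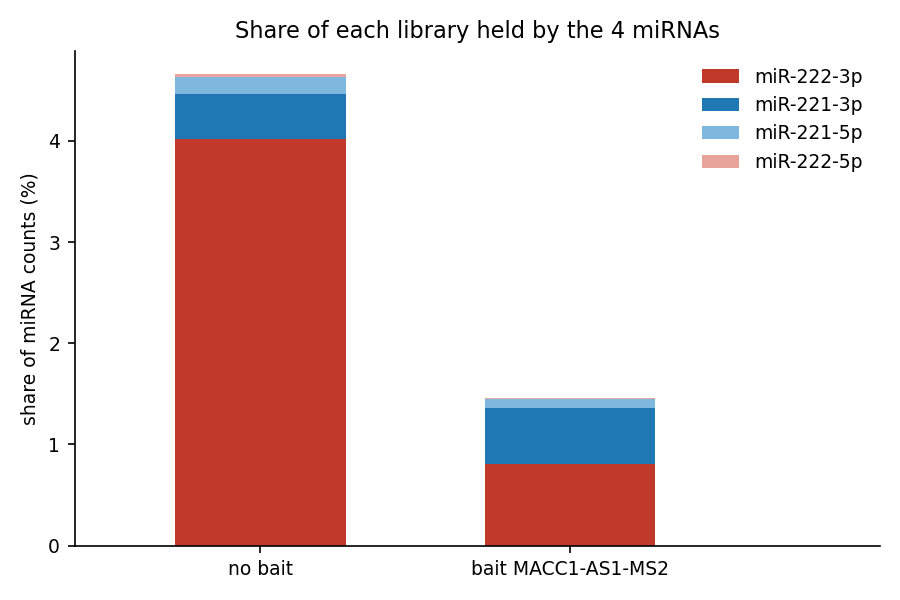
Share of all miRNA counts, in percent, held by each of the 4 strands in the no-bait and the bait library, stacked; 1 library per bar. The stack is 4.66% without bait and 1.46% with it, and the miR-222-3p segment shrinks from 4.02% to 0.803%.

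Shares of a library depend on what else was recovered, so the guides were also compared with each other inside each library, where scaling between libraries does not enter. There were 9.13 counts of miR-222-3p per count of miR-221-3p without bait and 1.43 with bait. This proportion was 6.36-fold lower with bait (5.94 to 6.82), far beyond counting error. miR-222-3p made up 90.1% of the guide counts without bait (89.6% to 90.7%) and 58.9% with bait (58.1% to 59.7%).

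The partner strands were shifted in the same direction. miR-222-5p made up 12.7% of the 5p counts of the pair without bait (9.99% to 15.8%) and 3.11% with bait (2.12% to 4.38%). The proportion of miR-222-5p to miR-221-5p was 4.53-fold lower with bait (2.87 to 7.27). Its interval overlapped that of the guides, and so did not separate the shift of the partners from that of the guides. Both strands of miR-222 were thus depleted in the bait library relative to the matching strands of miR-221.

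Within each hairpin the 5p strand had the smaller ratio. Of the miR-221 counts 28.3% were 5p without bait (26.1% to 30.5%) and 14.2% with bait (13.3% to 15.0%), so the proportion of 5p to 3p was 2.39-fold lower with bait (2.10 to 2.71). Of the miR-222 counts 0.623% were 5p without bait (0.484% to 0.789%) and 0.367% with bait (0.250% to 0.521%), a proportion 1.70-fold lower (1.10 to 2.69) that rests on 31 counts with bait. The arms of either hairpin were nevertheless closer to each other than in most hairpins compared. Arms were paired by names that differ only in 5p or 3p, so a hairpin with a locus number in 1 arm name was left out. The log2 ratios of the arms differed by 1.26 in miR-221 and 0.77 in miR-222. These are places 25 and 28 of the 34 hairpins so paired with both arms tested, ordered from the widest gap. In the other 32 hairpins the median gap was 2.18, and the rarer arm had the smaller ratio in 19 of them.

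The gap between the guides was set beside other miRNAs that share a seed. The log2 ratio of miR-221-3p exceeded that of miR-222-3p by 2.67. RefSeq gave a mature sequence for 203 of the 231 tested miRNAs, and these formed 79 other pairs with identical bases 2 to 8, which share members within families. Their median gap was 0.90, and 13 of the 79 were wider than that of the guides. The 79 include miR-199a-3p with miR-199b-3p and miR-365a-3p with miR-365b-3p, named after their values were seen. The sequences within each of these pairs are identical and their gap was 0, so they do not compare with the guides. Of the 25 other pairs in which both miRNAs had at least 1000 counts, 4 were wider, and their median was 0.92. The widest of these were let-7b-5p with let-7i-5p, 3.44 apart, and miR-125a-5p with miR-125b-5p, 2.98 apart, both named after their values were seen. The others were let-7b-5p with let-7a-5p, 2.69 apart, and with let-7f-5p, 2.68 apart, named in the same way. These wider pairs thus repeat let-7b-5p, and the last lie close to the gap of the guides. A shared seed therefore did not go with a shared ratio for miR-221 and miR-222, and this gap was wide but not the widest.

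The same was asked of neighbours in the genome. Hairpins within 10 kb on the same strand were paired, each represented by its more abundant arm, and a hairpin was left out where that arm also comes from another locus or is not in the RefSeq table. Of 30 other pairs the median gap was 1.77, and 8 were wider than that of miR-221 and miR-222. In 5 of the 30 both miRNAs had at least 1000 counts, and 1 of these was wider, miR-27a-3p with miR-23a-3p, 2.74 apart, also named after its values were seen. An alternative chosen after the data were seen included arms from several loci. It gave 62 other pairs of loci, with a median gap of 1.59 and 14 that were wider. Some of these pairs hold the same miRNAs at different loci, so the same gap is counted more than once.

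**Figure D4:**
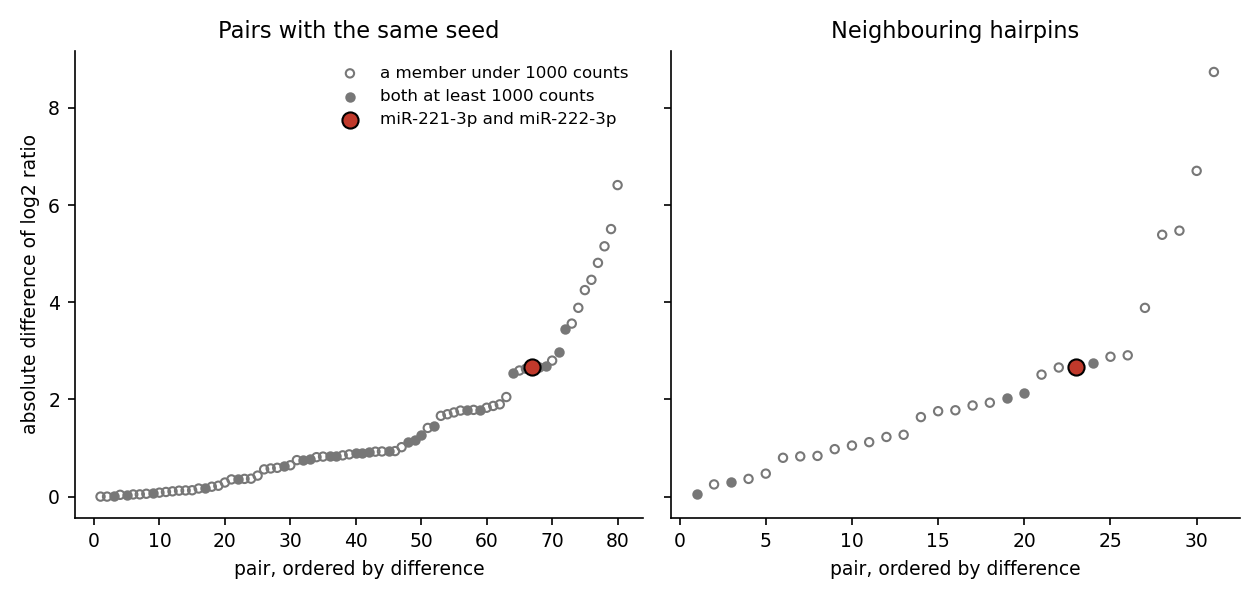
Absolute difference of log2 ratio within pairs of tested miRNAs, ordered from the smallest, for pairs with identical bases 2 to 8 (left) and for hairpins within 10 kb on 1 strand (right); filled points are pairs in which both miRNAs had at least 1000 counts. The guides of miR-221 and miR-222, in red, lie at 2.67, in the upper part of both panels, where the medians of the other pairs are 0.90 and 1.77.

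Base composition and length moved with the ratio across miRNAs, and both differed a little between the guides. The GC content was 47.8% in miR-221-3p, 52.4% in miR-222-3p and 50.0% in miR-222-5p. Among the 203 tested miRNAs with a sequence, Spearman's rho between GC content and log2 ratio was -0.30, a description across miRNAs of the same 2 libraries. Between mature length and log2 ratio it was 0.24, where miR-221-3p has 23 bases and miR-222-3p 21. The median log2 ratio was 0.82 for the 70 miRNAs with a GC content of 40% to under 50%, which include miR-221-3p, and 0.07 for the 61 with 50% to under 60%, which include both miR-222 strands. The part of base composition or length in the gap of 2.67 between the guides was not tested.

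MACC1-AS1 was searched for sites complementary to the seeds, in the sense strand of its annotated transcript of 639 bases (chr7:20141916-20153531, plus strand, 4 exons). TGTAGC, the complement of bases 2 to 7 of both guides, occurred 0 times. It is contained in the longer ATGTAGC, the complement of bases 2 to 8, which therefore also occurred 0 times. In the first 639 bases of 13192 other lincRNA and antisense transcripts at least that long, TGTAGC was found in 8.48% and ATGTAGC in 2.13%. For miR-222-5p the motifs TACTGA and, containing it, CTACTGA occurred 0 times in MACC1-AS1, and in 13.0% and 4.46% of the other transcripts. The isoform in the bait and its MS2 repeats were not analysed here.

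Among miRNAs with at least 1000 summed counts, those with a log2 ratio closest to that of miR-222-3p were miR-151a-3p, 6.94-fold lower with bait (6.67 to 7.23) and 0.47 away on the log2 scale, and miR-183-5p, 2.85-fold lower and 0.81 away. let-7i-5p, miR-10a-5p and miR-92b-3p followed at 0.88, 0.94 and 1.13 away. The lower calls of miR-10a-5p and miR-92b-3p were lost with DESeq2 size factors, at ratios of 0.513 and 0.586. miR-221-3p had closer company. Its nearest miRNAs were miR-148a-3p at a ratio of 1.27 and miR-30a-3p at 1.26, 0.0042 and 0.014 away on the log2 scale, then miR-99b-5p, miR-22-3p and miR-30e-3p at ratios of 1.17, 1.39 and 1.43. Likeness here means the difference of 1 ratio from 2 libraries.

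Among the other tested miRNAs of the X chromosome more were called higher than lower with bait, as was the case over all tested miRNAs, of which 39.4% were higher and 26.8% lower. Of 63 listed X-linked miRNAs 26 were tested, of which 14 were higher and 6 lower with bait, and their median log2 ratio was 1.41 against 0.55 over all tested miRNAs. The 6 include both strands of miR-222, and without the pair 14 of 22 were higher and 4 lower. The most abundant of the others were miR-224-5p, 2.12-fold lower (1.92 to 2.34), miR-532-5p, 3.10-fold lower (2.66 to 3.61), and miR-361-3p, 2.24-fold lower (1.72 to 2.90). The calls of miR-224-5p and miR-361-3p were lost with DESeq2 size factors, and that of miR-224-5p also with TMM factors. miR-452-5p, which lies next to miR-224 in an intron of GABRE, had a ratio of 20.9 (7.08 to 102), from 3 counts without bait and 244 with it.

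The miRNAs typical of basal and mesenchymal-like breast lines, among them the pair itself, held 62.1% of counts without bait and 54.6% with bait. All 15 were seen in both libraries. Most of this share came from miR-100-5p, at 452802 RPM without bait and 296361 RPM with it, and miR-21-5p, at 97328 and 167088 RPM. Not all members were abundant, since miR-155-5p, named after its values were seen, had 6 counts in each library and was not tested. Of 13 tested, 4 were higher and 3 lower, near the 39.4% and 26.8% of all tested miRNAs. Apart from both strands of miR-222 the lower member was miR-10a-5p, encoded in the HOXB cluster, and miR-125b-5p, 11.4-fold higher (10.7 to 12.0), was far on the other side. The most abundant member, miR-100-5p, had a ratio of 0.655. The epithelial and luminal markers held 0.0111% and 0.0191% of counts, with 3 of 10 at 0 in both libraries. These low levels of the epithelial and luminal markers do not go against the label of the line. The most abundant of them was miR-200b-3p, with 28 counts without bait and 144 with it.

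Markers of other cell types were low. The blood cell list held 0.0864% of counts without bait and 0.0432% with it, and 4 of its 8 members were at 0 in both. Nearly all of it was miR-486-5p, with 214 and 386 counts and a ratio of 0.465, a lower call that was lost with TMM and DESeq2 factors, while the defining erythroid member miR-451a had 10 and 4 counts. The fibroblast and smooth muscle list held 0.0801% and 0.0487%, led by miR-143-3p with 82 and 251 counts, a ratio of 0.788. Only 3 of its 8 members were tested, and 2 were lower with bait, where 26.8% of all tested miRNAs were lower. These were miR-199a-3p at 0.493 and miR-199a-5p at 0.439, which share the miR-199a name and so are not separate members. DESeq2 size factors ended both calls and TMM factors that of miR-199a-3p. The endothelial list held 0.0185% and 0.0612%, nearly all of it miR-126-3p. Each of these shares was far below that of miR-222-3p in the same library, and their part in its ratio was not tested.

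The ratios of the 4 strands were recomputed with other scalings between the libraries. That of miR-222-3p ran from 5.48-fold lower, when the 5 most abundant miRNAs were left out of the totals, to 3.74-fold lower with DESeq2 size factors, and that of miR-222-5p from 9.31-fold to 6.36-fold lower. That of miR-221-3p ran from 1.16 to 1.70 and remained above 1 under each of the scalings. miR-221-5p, at 0.713 with DESeq2 size factors, passed the lower rule in the scaling without the 5 most abundant miRNAs, at 0.487 (0.435 to 0.545).

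**Figure D5:**
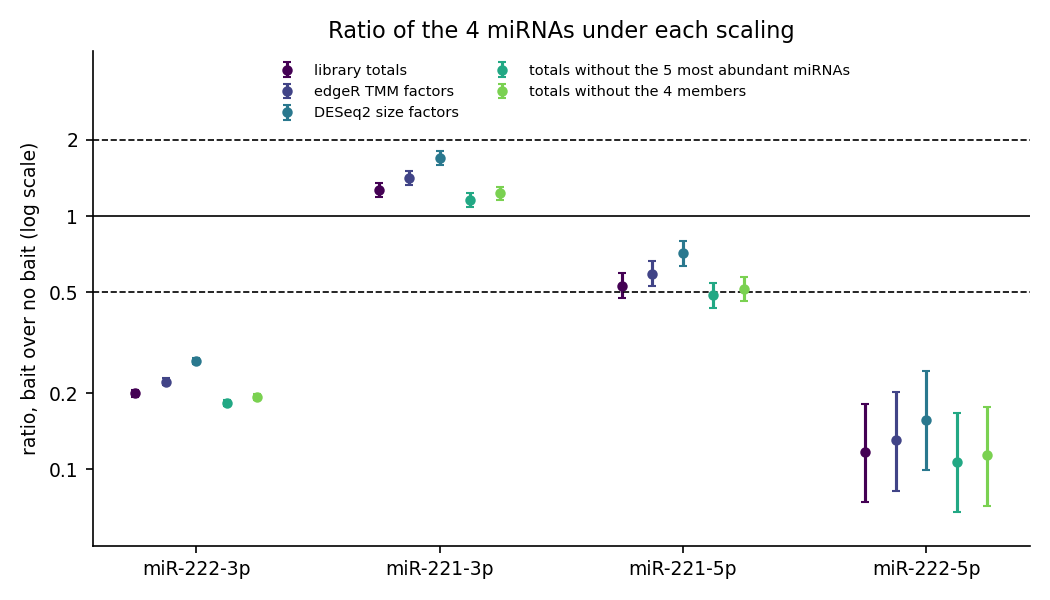
Bait over no-bait ratio of the 4 strands on a log axis with 95% intervals, under library totals and the 4 other scalings; dashed lines mark ratios of 2 and 0.5. Both strands of miR-222 stay below 0.5 under all 5, miR-221-3p stays between 1 and 2, and miR-221-5p crosses 0.5 in 1 of them.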

How the data were processed

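Small RNA bound to resin with or without MACC1-AS1-MS2 was sequenced from MDA231 lysate, 1 library per group. The authors deposited whole-number counts for 2588 mature miRNA names per library, and RPM values that equal count over library total to within 0.00994 RPM, as checked on the files. Per the submitters' processing notes BWA was used, version not given; the labels and files do not state trimming or the miRNA reference. The authors also deposited a log2 fold change and a p-value per miRNA from a test that is not named.

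Counts were scaled by library totals of 1047269 and 269716. Ratios have exact conditional binomial 95% intervals, RPM exact Poisson, shares exact Clopper-Pearson and proportions conditional odds ratio intervals (scipy 1.17.1). All are for counting error only, since each group held 1 library. Amplification duplicates among the reads were not examined here. At least 30 summed counts were required. A count of 0 was set to a floor of 3 counts for a ratio. Alternatives were edgeR 4.0.16 TMM and DESeq2 1.42.0 size factors, totals without the 5 most abundant miRNAs or without the 4 members, deposited RPM, other count minimums and an interval bound beyond 2-fold.

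The members and lists were chosen with earlier results of these data known. The miRNAs named, besides members, were by rule those with the seed of a member, the 5 nearest in log2 ratio to each guide with at least 1000 summed counts, its neighbours in abundance, and up to 4 of the most abundant per list. Of the 63 X-linked names 56 had a RefSeq locus, all on X. A list of miRNAs grouped by their targets is not reported here.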

Additional observations from a re-analysis of the deposited data

How the results depend on the processing

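The library without bait limits the precision, and miR-222-5p rests on 31 and 68 counts. The ratio of miR-221-5p was 0.532, and 0.487 when the totals omit the 5 most abundant miRNAs, where it passed the lower rule; this follows from the changed factor. Deposited RPM repeats the scaling by library totals, to rounding, and so is no separate check. Apart from miR-221-5p, the ratios of the other 3 strands kept their direction and side of the rule under TMM, DESeq2 and both reduced totals. Relative to library totals these factors shift every log2 ratio by 0.15 (TMM), 0.42 (DESeq2), -0.13 (without the 5 most abundant) and -0.05 (without the 4 members). Both miR-222 strands, at log2 ratios of -2.32 and -3.09, lie farther than these shifts from the lower rule. Their calls therefore could not change, and keeping them is no separate check. Over all tested miRNAs, requiring 100 counts left 59 higher and 37 lower of 146, against 91 and 62 of 231. Requiring 10 counts gave 95 higher and 81 lower of 325. With no count filter 95 were higher and 100 lower of 715. Other numbers of miRNAs are tested there. More higher than lower calls were thus found at the 3 minimums, but not without one. DESeq2 size factors gave 114 higher and 44 lower. The proportions within a library were recomputed from deposited RPM, and the list counts under each scaling, as alternatives chosen after the data were seen. The proportions were unchanged to rounding, which was fixed in advance, since deposited RPM is count over library total. Calls in the blood cell list went from 1 lower to 0 with TMM and DESeq2, and in the fibroblast and smooth muscle list from 2 lower to 1 with TMM and 0 with DESeq2.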
